A study of Mus musculus with 7 samples.

Results

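Interferon-stimulated antiviral genes encode the proteins that cells make against viruses when they sense interferon, and 54 of them were taken by name. The tables held 52 of the 54 among 23337 genes, and Rnf213 and Helz2 were not analysed here. A total of 51 members had a mean of at least 1 TPM (a transcript level corrected for the length of the gene, with equal totals in all libraries) over the 7 libraries and were tested. Ifnb1, the gene of interferon beta, was the member under that limit.

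The samples were bone marrow-derived macrophages, grown from marrow in the cytokine M-CSF, from male wild-type mice and male Tgm2 knockout mice of 6 to 8 weeks. All cells had M-CSF at 25 ng/ml for 7 days. They were then left untreated, called M0, or given lipopolysaccharide (LPS), from the outer membrane of bacteria, at 10 ng/ml for 6 hours. Transglutaminase 2, the product of Tgm2, is a protein-crosslinking enzyme. The groups were wild type untreated (WT M0, 2 libraries), Tgm2 knockout untreated (KO M0, 1 library), wild type with LPS (WT LPS, 2 libraries) and Tgm2 knockout with LPS (KO LPS, 2 libraries). The mouse strain and the design of the knockout allele were not given in the sources used here. The labels do not state whether replicates are separate mice or cultures. The p-values therefore measure only how far these samples spread, which may be technical. For the lone KO M0 library the spread of the other groups was assumed.

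Macrophages sense LPS through the receptor Tlr4, whose adaptor Ticam1 passes the signal to the transcription factor Irf3, and Irf3 together with NF-kappaB turns on Ifnb1. Secreted interferon beta binds the receptor pair Ifnar1 and Ifnar2, and the kinases Jak1 and Tyk2 then activate transcription factors of the STAT family, among them Stat2. Stat2 and Irf9 are part of the complex ISGF3, which binds interferon-stimulated response elements in the promoters of the antiviral genes.

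Promoter sequences of the members were searched for the letters of such elements, and binding was not measured. RefSeq (GRCm38.p6) holds a promoter window, from 250 bases before to 50 bases after an annotated start, for 45 of the 54 members, with 55 windows in all. The core of an interferon-stimulated response element, a pair of GAAA with any 2 bases between them, was searched on both strands and found in 19 of these 55 windows (34.5%) and in 3.44% of all 32851 windows in the table. Printed below are the 150 bases before the start, 5′ to 3′ on the strand of the gene. Isg15, Ifit1 and Rsad2 are well-known members whose windows hold that core. Their capitals mark that core, read as a pair of TTTC where it lies on the other strand, and the 3 matches at Isg15 overlap each other. Ifnb1 stands for the ligand, and its capitals mark a kappaB form, the kind of site that NF-kappaB binds, searched as GGG, any 3 bases and TTCC. Ifi44 and Trim25 had the largest and the smallest LPS change in wild type, and neither held a match to these motifs in the bases shown.
Ifnb1, chr4:88522795-88522944, minus strand: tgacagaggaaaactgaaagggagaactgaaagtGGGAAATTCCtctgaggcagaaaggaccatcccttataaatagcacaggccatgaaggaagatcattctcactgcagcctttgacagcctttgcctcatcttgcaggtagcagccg
Isg15, chr4:156200819-156200968, minus strand: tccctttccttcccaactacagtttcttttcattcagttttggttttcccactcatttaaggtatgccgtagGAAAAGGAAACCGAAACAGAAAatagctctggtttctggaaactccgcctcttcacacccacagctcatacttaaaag
Ifit1, chr19:34640739-34640888, plus strand: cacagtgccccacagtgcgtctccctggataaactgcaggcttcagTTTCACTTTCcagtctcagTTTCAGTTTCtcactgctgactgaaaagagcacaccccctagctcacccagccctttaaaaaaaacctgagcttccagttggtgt
Rsad2, chr12:26456453-26456602, minus strand: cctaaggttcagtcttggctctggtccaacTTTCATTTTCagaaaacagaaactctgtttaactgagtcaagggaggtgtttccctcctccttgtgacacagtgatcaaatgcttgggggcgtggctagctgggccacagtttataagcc
Ifi44, chr3:151749911-151750060, minus strand: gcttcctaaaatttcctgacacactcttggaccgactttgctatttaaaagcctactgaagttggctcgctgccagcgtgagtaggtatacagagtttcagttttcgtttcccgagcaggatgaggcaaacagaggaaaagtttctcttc
Trim25, chr11:88999253-88999402, plus strand: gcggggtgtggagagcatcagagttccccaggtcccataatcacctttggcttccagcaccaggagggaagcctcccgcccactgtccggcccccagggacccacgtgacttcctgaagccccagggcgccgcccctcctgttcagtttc

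Matches to the response element core were found at 17 of the 45 members with a window, 37.8% of them. Of the 29 matches, 21 lay upstream of the start and 19 within 150 bases upstream, with a median centre at -43.5 bases from the start. The gene's own strand held 19 of them and the other strand 10. The palindromic gamma-activated site TTCNNNGAA was present in 8 of the 55 windows (14.5%), against 8.30% of all windows. A narrower kappaB form, GGG, any 2 bases and TTTCC, was present in 0 of the 55 and in 1.63% of all. The form marked at Ifnb1, added after the data were seen and including every match of the narrower form, was present in 8 windows (14.5%), against 5.56% of all. No match says only that these letters are not in this window. A match to the core did not separate members by their response. On the log2 scale the median LPS change in wild type was 2.89 for the 17 tested members with a core. It was 2.71 for the 25 without. In the knockout the medians were 2.89 and 2.99. For the 8 tested members with a gamma-activated site the medians were 2.15 in wild type and 2.42 in the knockout. The 34 without had 3.05 and 3.26. For the 6 with the kappaB form marked at Ifnb1 they were 3.20 and 3.36, against 2.68 and 2.82 for the 36 without. These differences were not tested.

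**Figure D1:**
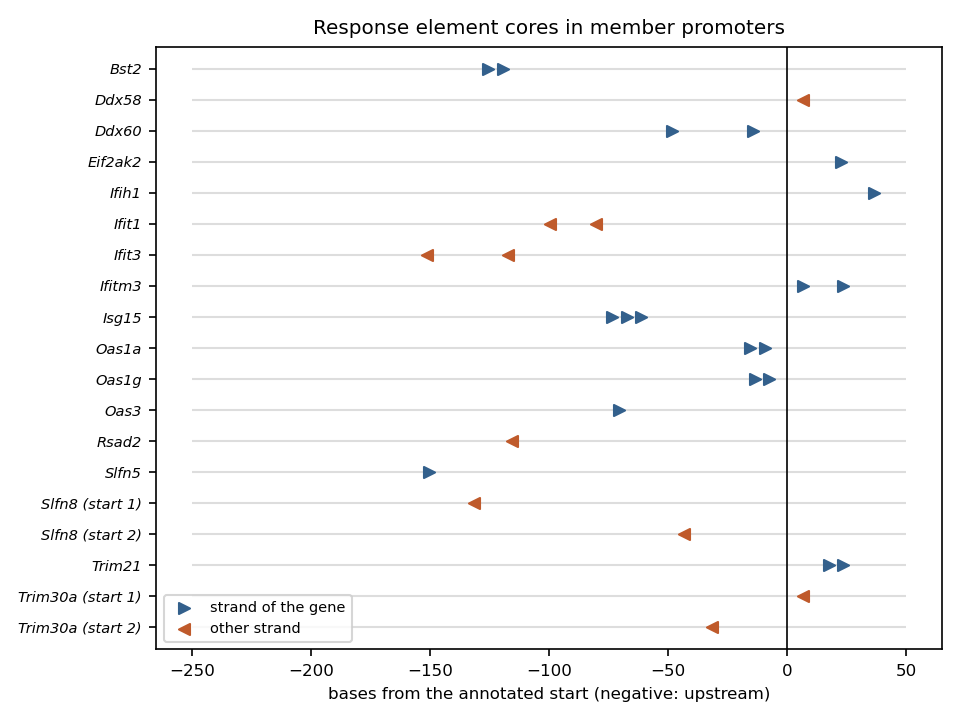
Positions of the response element core in the RefSeq promoter windows of the members that hold it, in bases from the annotated start (0), with negative values upstream. Right-pointing triangles lie on the strand of the gene and left-pointing ones on the other strand. Of the 29 matches, 21 lie upstream of the start.

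Some checks of the libraries bear on what follows. Tgm2 was 199 to 433 TPM in the wild-type libraries and 19.2 to 50.7 TPM in the knockout libraries. Xist, the RNA that coats an inactive X chromosome, was 47.2 and 55.4 TPM in the WT LPS libraries and 0.00535 TPM or listed at 0 in the other 5, although every sample is labelled male. Any comparison with WT LPS therefore also sets libraries with Xist against libraries without it, and that difference cannot be told apart from the difference in LPS or genotype. All 12 macrophage markers were present, with summed levels of 57296 to 63747 TPM untreated and 41293 to 44358 TPM after LPS. Plasmacytoid dendritic cells are strong interferon producers, and their 10 markers summed to 69.3 to 92.8 TPM. Lair1 (36.1 to 53.3 TPM) and Tcf4 (17.8 to 37.0 TPM) carried that sum, Klk1 was at 0 in every library, and Siglech, Ly6d and Pacsin1 reached at most 0.400 TPM. Of the 4 tested, 1 was called higher with LPS in each genotype, Ccr9, at 0.240 to 0.497 TPM untreated and 2.25 to 3.08 TPM after LPS. Neutrophil markers summed to 5.01 to 8.48 TPM untreated, 208 and 333 TPM in WT LPS against 106 and 161 TPM in KO LPS. S100a8 made up most of that sum, and Retnlg and Cxcr2 were at 0 in every library. Both tested neutrophil markers, S100a8 and Camp, were called higher with LPS in each genotype, Camp at no more than 0.906 TPM untreated and at least 9.14 TPM after LPS, and S100a8 was called lower in KO LPS than in WT LPS (-1.04, limma adjusted p = 0.039). The 10 stromal and endothelial markers summed to 35.3 to 52.6 TPM untreated, 26.8 and 28.4 TPM in WT LPS and 41.3 and 35.6 TPM in KO LPS. Of the 6 tested, 3 were called higher in KO LPS than in WT LPS (4.59% of all genes tested), all near the floor after LPS. Col1a1 and Col1a2 were listed at 0 in both WT LPS libraries, against 1.18 and 1.56 TPM and 0.692 and 0.831 TPM in KO LPS. Pecam1 was 0.585 and 0.333 TPM in WT LPS against 2.12 and 2.30 TPM in KO LPS. Pdgfrb went from 1.81 to 2.29 TPM untreated to 18.2 to 27.7 TPM after LPS. Cd4 was called lower with LPS in each genotype, and was 11.6 and 14.4 TPM in WT M0 against 1.23 and 1.19 TPM in WT LPS. The part of these markers in the results was not tested. Depth is unknown, since TPM keep none. In bulk RNA, fewer cells that express a gene and less RNA per cell cannot be told apart.

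Nearly all members rose with LPS in wild-type cells. Of 51 tested, 49 were higher in WT LPS than in WT M0 and 0 were lower, by limma with Benjamini-Hochberg adjustment over all 11096 genes tested (adjusted p under 0.05). Over all genes 15.0% were higher and 29.6% lower. The median log2 fold change of the members was 2.86, on the log2(TPM + 1) scale, against -0.21 over all genes. That shift of the median gene disappeared with median-ratio scaling (-0.01), which called 2416 genes higher and 2348 lower in place of 1665 and 3284. With that scaling the median of the members was 3.06. WT LPS libraries lay above both WT M0 libraries for 50 members (25.0% of all genes) and below both for 1, Trim25 (48.4%).

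Knockout cells gave the same counts. KO LPS was higher than KO M0 for 49 of 51 members and lower for 0, where 13.8% of all genes were higher and 24.3% lower by the same limma test. The median of the members was 2.99 and that of all genes -0.24, or 3.24 and -0.01 with median-ratio scaling, which called 2104 genes higher and 1854 lower in place of 1533 and 2700. KO LPS libraries lay above the KO M0 library for 50 members (30.3% of all genes) and below it for Trim25 (57.3%). This comparison does not use the libraries with Xist. Fitted without them, it also gave 49 members higher and 0 lower.

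Summed over members, transcripts made up 0.552% to 0.594% of the untreated libraries. The share was 2.35% and 1.79% in the WT LPS libraries and 2.44% and 2.64% in the KO LPS libraries. Only 5 or 6 members reached 100 TPM in an untreated library, and 42 to 48 did so in an LPS library. The untreated order was led by Ifitm3, Slfn2, Lgals3bp, Bst2 and Trim25 in both genotypes.

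**Figure D2:**
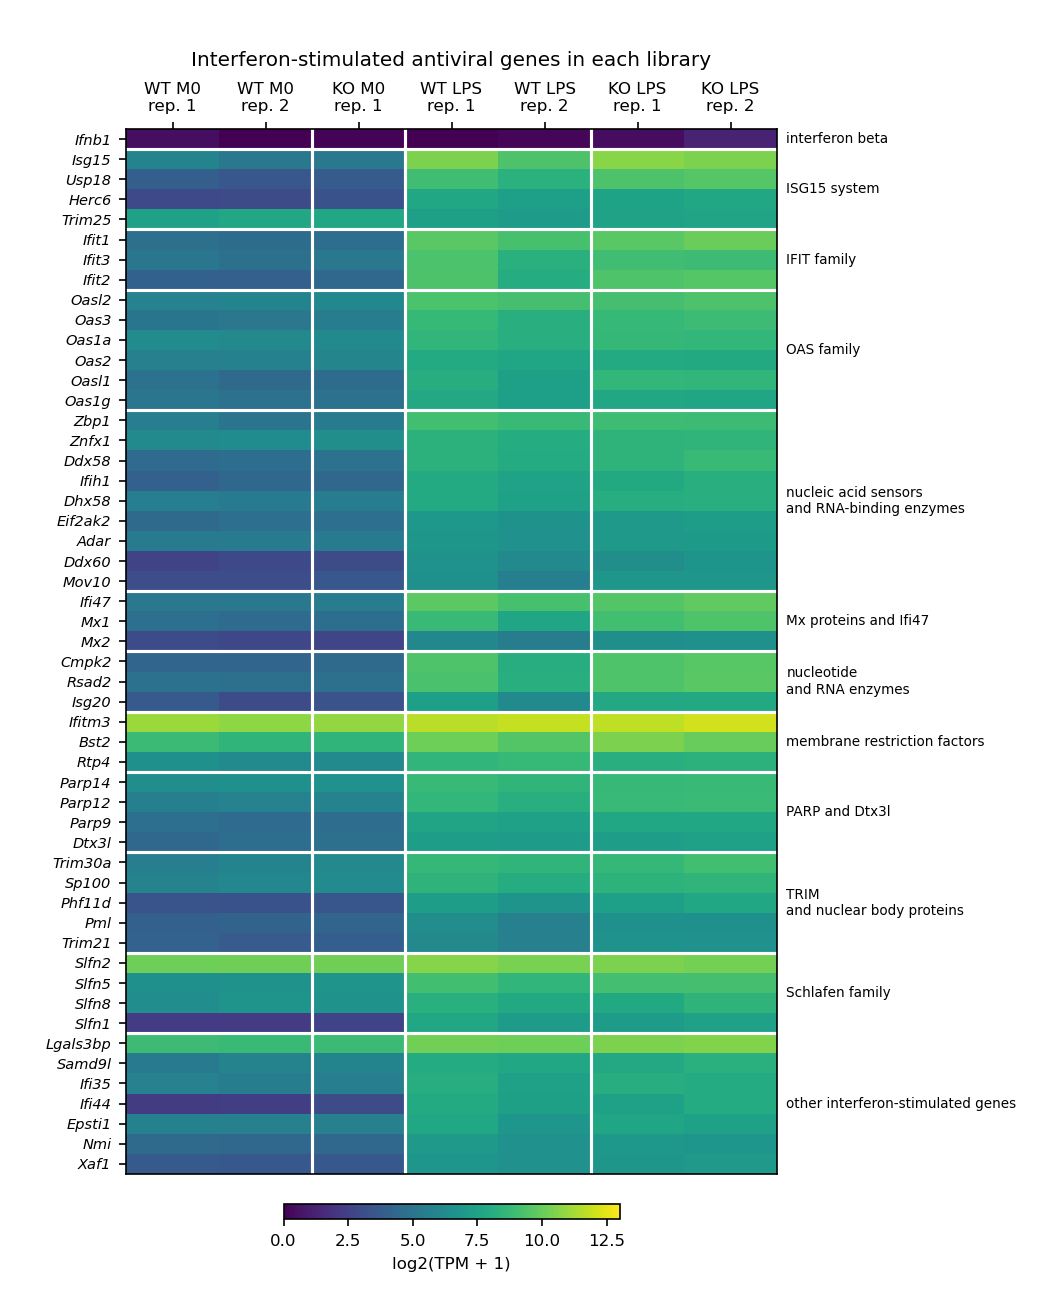
Levels of the 52 members found in the tables, as log2(TPM + 1) by colour, with 1 row per member grouped by role and 1 column per library. White lines separate roles and groups. Nearly every row is brighter in the 4 LPS libraries than in the 3 untreated ones, while Trim25 and Slfn2 keep about the same colour and Ifnb1 stays near 0.

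The ligand itself was barely present. Ifnb1 (chromosome 4, 88522025 to 88522794) stood at 0.373 TPM in WT M0 replicate 1 and was listed at 0 in replicate 2. It was 0.0926 TPM in KO M0, listed at 0 and 0.179 TPM in WT LPS, and 0.33 and 1.34 TPM in KO LPS. Its highest value was thus in KO LPS replicate 2, and the KO LPS and WT M0 libraries overlapped. Both KO LPS libraries lay above the KO M0 library (30.3% of all genes tested) and above both WT LPS libraries (28.7%). All these values are near the floor, and Ifnb1 was not tested. Among 20 other interferon genes, 16 were listed at 0 in every library and none reached 1 TPM in any.

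Members of the ISG15 system act through Isg15, a ubiquitin-like protein that is attached to other proteins. Of the 4 members tested, 3 rose in each genotype. Isg15 (chromosome 4, 156199424 to 156200818), whose promoter above carries 3 overlapping cores, measured 57.4 and 35.6 TPM in WT M0 and 36.3 in KO M0, then with LPS 1363 and 660 in wild type and 1632 and 1368 in the knockout. The LPS libraries were all far above the untreated ones, and WT LPS replicate 2 was the lowest of the 4. The log2 fold change of Isg15 was 4.36 in wild type (SE 0.31, limma adjusted p = 2.2e-06) and 5.32 in the knockout (SE 0.38, adjusted p = 3.5e-06).

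Usp18 (chromosome 6, 121245906 to 121270917), the protease that removes Isg15 from proteins and also restrains the interferon receptor, was 14.4 and 10.4 TPM in WT M0 and 12.6 in KO M0. With LPS it was 522 and 319 TPM in wild type and 651 and 752 in the knockout. Both KO LPS libraries were above both WT LPS libraries. Its log2 fold change with LPS was 4.95 in wild type (SE 0.24) and 5.69 in the knockout (SE 0.29), the largest of all members there (limma adjusted p = 1.6e-07 and 4.4e-07).

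Trim25 (chromosome 11, 88999403 to 89020294), an E3 ligase that acts with the RNA sensor Ddx58, went against the rest. It was 171 and 210 TPM in WT M0 and 215 in KO M0, then with LPS 167 and 146 in wild type and 177 and 193 in the knockout. The LPS libraries lay below the untreated ones of the same genotype, by little. Log2 differences were -0.28 in wild type (limma adjusted p = 0.20) and -0.22 in the knockout (0.42), so neither passed. With median-ratio scaling the knockout value of Trim25 was 0.034.

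IFIT proteins bind viral RNA and block its translation. All 3 rose in both genotypes, and they lie side by side on chromosome 19. Ifit1 (34640889 to 34650009) was 26.7 and 23.2 TPM in WT M0 and 25.4 in KO M0, then with LPS 806 and 601 in wild type and 820 and 1057 in the knockout. Ifit2 (34550550 to 34576534) was 15.2 and 15.1 TPM in WT M0 and 19.7 in KO M0, then with LPS 663 and 261 in wild type and 684 and 766 in the knockout. The WT LPS replicates of Ifit2 differed more from each other than WT LPS replicate 1 differed from either knockout library. Log2 fold changes of Ifit1 and Ifit2 were 4.75 and 4.69 in wild type and 5.14 and 5.13 in the knockout (limma adjusted p at most 6.1e-06). Ifit3 had 3.85 and 3.75.

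OAS proteins sense double-stranded RNA and make a short RNA messenger, and the OAS-like proteins are their relatives. All 6 rose in both genotypes, with medians of 2.85 in wild type and 3.03 in the knockout. Oasl2 had the highest WT LPS level of the family. It was 53.4 and 57.6 TPM in WT M0 and 66.9 in KO M0, then with LPS 634 and 577 in wild type and 571 and 656 in the knockout, so the 2 genotypes overlapped after LPS. Oasl1 (chromosome 5, 114923143 to 114937911), which restrains the translation of Irf7, was 28.1 and 21.2 TPM in WT M0 and 23.1 in KO M0, then with LPS 276 and 169 in wild type and 385 and 382 in the knockout. Here both knockout libraries lay above both wild-type libraries after LPS. Log2 fold changes of Oasl1 were 3.09 in wild type and 4.00 in the knockout (limma adjusted p = 2.7e-06 and 3e-06). Oas1a and Oas1g are near-identical neighbours, so the split of reads between them is uncertain.

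Sensors of nucleic acids and RNA-binding enzymes also rose without exception, 9 of 9 in both genotypes. Their log2 fold changes ran from 1.37 (Adar, which edits double-stranded RNA) to 3.65 (Ddx60, a helicase) in wild type. Zbp1, a sensor of Z-form nucleic acids, had the highest WT LPS level of these, with 46.2 and 31.1 TPM in WT M0 and 40.3 in KO M0, then with LPS 533 and 437 in wild type and 491 and 480 in the knockout. After LPS the knockout libraries of Zbp1 lay between the wild-type ones. The RNA sensors Ddx58 (RIG-I) and Ifih1 (MDA5) had nearly equal changes, 3.56 and 3.55 in wild type and 3.76 and 3.73 in the knockout. Mov10, an RNA helicase, was 7.28 and 7.38 TPM in WT M0 and 10.6 in KO M0, then with LPS 92.6 and 48.1 in wild type and 117 in each knockout library.

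Mx1 and Mx2 encode dynamin-like GTPases that trap viral components, and Ifi47 is another interferon-induced GTPase. RefSeq annotates both Mx genes of this build as transcribed pseudogenes, so their values are levels of RNA. Mx1 (chromosome 16, 97447035 to 97462906) was 25.5 and 22.4 TPM in WT M0 and 25.4 in KO M0, then with LPS 438 and 198 in wild type and 530 and 677 in the knockout. Its log2 fold change was 3.57 in wild type and 4.51 in the knockout (limma adjusted p = 6.7e-06 and 7.9e-06). Mx2 was lower throughout, at 6.77 and 6.08 TPM in WT M0 and 5.58 in KO M0, then with LPS 65.1 and 42.9 in wild type and 86.8 and 91.8 in the knockout. For both Mx genes the knockout libraries were above both wild-type libraries after LPS. Ifi47 was 836 and 596 TPM in WT LPS against 732 and 923 in KO LPS, overlapping, with changes of 4.28 and 4.24.

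Enzymes acting on nucleotides and RNA rose in 3 of 3 cases in both genotypes. Rsad2 (viperin, chromosome 12, 26442743 to 26456452) makes a chain-terminating nucleotide, and its neighbour Cmpk2 (26469117 to 26479837) is a nucleotide kinase. Rsad2 was 28.4 and 26.9 TPM in WT M0 and 27.2 in KO M0, then with LPS 615 and 293 in wild type and 684 and 828 in the knockout. Cmpk2 was 18.2 and 17.8 TPM in WT M0 and 21.9 in KO M0, then with LPS 679 and 274 in wild type and 683 and 794 in the knockout. In both genes WT LPS replicate 2 was far below the knockout libraries. WT LPS replicate 1 was under the lower knockout library for Rsad2 (615 against 684 TPM) and nearly level with it for Cmpk2 (679 against 683 TPM). Isg20 (chromosome 7, 78913396 to 78920396), an RNA exonuclease, was 11.7 and 7.21 TPM in WT M0 and 8.88 in KO M0, then with LPS 160 and 69.8 in wild type and 231 and 233 in the knockout. Log2 fold changes with LPS were 3.89 (Rsad2), 4.51 (Cmpk2) and 3.39 (Isg20) in wild type and 4.74, 5.01 and 4.56 in the knockout, all with a limma adjusted p of at most 1.9e-05.

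Membrane restriction factors, all 3 of which rose in both genotypes, were abundant before LPS. Ifitm3 (chromosome 7, 141009590 to 141010744), which blocks the fusion of viruses with endosomes, was the most abundant member in every group. It was 2119 and 1753 TPM in WT M0 and 1917 in KO M0, then with LPS 3272 and 3676 in wild type and 3497 and 4364 in the knockout. Its log2 fold change was 0.85 in wild type (SE 0.18, limma adjusted p = 0.0032) and 1.03 in the knockout (SE 0.22, 0.0041), the smallest that passed in either genotype. Bst2 (tetherin, chromosome 8, 71534255 to 71537472), which holds budding virus at the cell surface, was 460 and 358 TPM in WT M0 and 367 in KO M0, then with LPS 1126 and 736 in wild type and 1402 and 1011 in the knockout. Its changes were 1.16 and 1.70. Rtp4, a chaperone of membrane receptors, was 90.6 and 69.9 TPM in WT M0 and 74.3 in KO M0, then with LPS 378 and 424 in wild type and 291 and 323 in the knockout. It was the single member with both knockout LPS libraries below both wild-type ones.

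Genes of the ADP-ribosylating PARP proteins and of Dtx3l, the E3 ligase partner of Parp9, rose together, 4 of 4 in both genotypes, with log2 fold changes of 2.20 to 2.87 in wild type. Parp14 led them with 436 and 368 TPM in WT LPS against 422 and 435 in KO LPS, from 81.9 and 91.1 in WT M0 and 93.9 in KO M0. Parp12 was 391 and 296 TPM in WT LPS against 435 and 456 in KO LPS. Dtx3l (chromosome 16, 35926515 to 35939027) and Parp9 (35938470 to 35972621) overlap at their ends, and whether reads were counted by strand is not given, so their values are not fully separate.

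Apart from Trim25, described above, genes of TRIM and nuclear body proteins rose in 5 of 5 cases in both genotypes. Trim30a, a mouse TRIM protein that dampens inflammatory signalling, was 408 and 364 TPM in WT LPS against 410 and 529 in KO LPS, from 46.3 and 56.7 in WT M0 and 67.9 in KO M0. Trim21 (chromosome 7, 102557920 to 102565482), a cytosolic antibody receptor, was 16.1 and 12.4 TPM in WT M0 and 13.6 in KO M0, then with LPS 68.9 and 49.5 in wild type and 102 and 94 in the knockout. Both knockout libraries of Trim21 exceeded both wild-type ones after LPS. Its changes were 1.97 in wild type and 2.76 in the knockout.

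Schlafens are regulators of immune cell growth and of translation, and the 4 members of this family responded unevenly. Slfn1 was among the strongest responders. It was 3.87 and 3.76 TPM in WT M0 and 5.05 in KO M0, then with LPS 217 and 138 in wild type and 138 and 173 in the knockout, with log2 fold changes of 5.17 and 4.68 (limma adjusted p = 8.5e-08 and 1.1e-06). Slfn2 was 1117 and 1168 TPM in WT M0 and 1163 in KO M0, then with LPS 1570 and 1315 in wild type and 1403 and 1238 in the knockout. It did not pass in wild type (0.33, limma adjusted p = 0.12) or in the knockout (0.18, 0.50). With median-ratio scaling the wild-type value of Slfn2 was 0.55 and passed (adjusted p = 0.0347). Slfn5 and Slfn8 both passed, with Slfn5 at 539 and 376 TPM in WT LPS against 562 and 580 in KO LPS.

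All 7 of the remaining tested members rose in both genotypes. Ifi44 (chromosome 3, 151730922 to 151749910), a microtubule-associated antiviral protein, had the largest change of any member in wild type. The exact letters of the core were not in its promoter above, and variants of the core were not searched. Ifi44 was 4.01 and 4.36 TPM in WT M0 and 7.13 in KO M0, then with LPS 242 and 167 in wild type and 172 and 252 in the knockout, so the genotypes overlapped after LPS. Its log2 fold changes were 5.28 (SE 0.23) and 4.68 (SE 0.28), with limma adjusted p of 8.5e-08 and 1.2e-06. Lgals3bp, a secreted glycoprotein, was 473 and 442 TPM in WT M0 and 469 in KO M0, then with LPS 1218 and 1105 in wild type and 1399 and 1479 in the knockout. Epsti1 was 210 and 111 TPM in WT LPS against 209 and 176 in KO LPS.

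**Figure D3:**
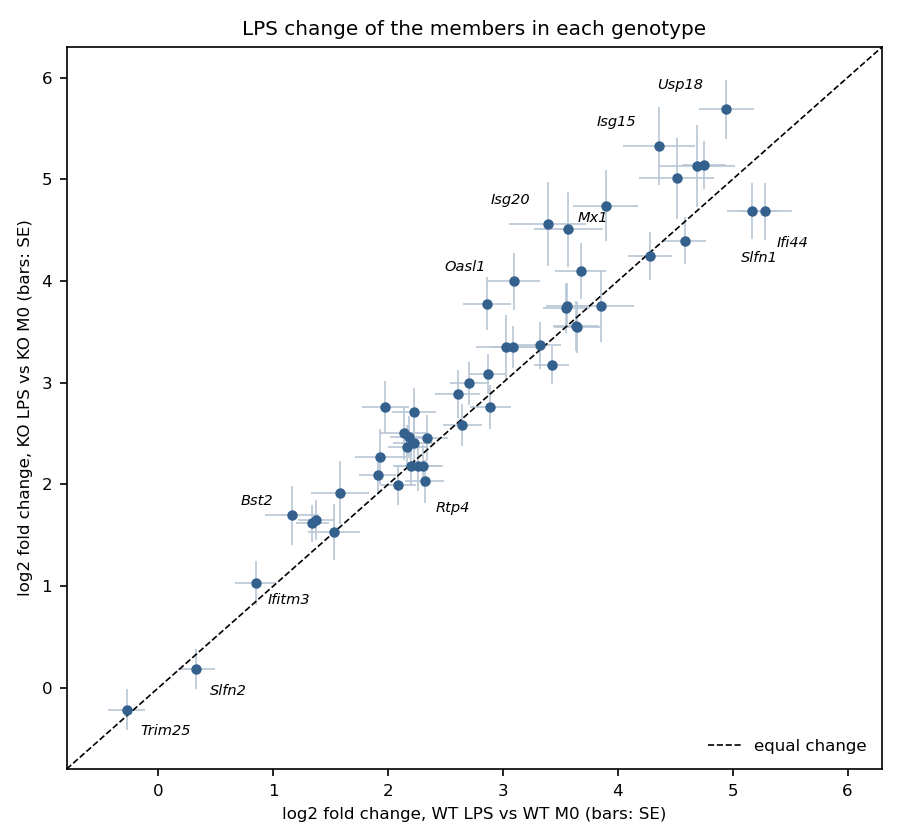
Log2 fold change with LPS of the 51 tested members in wild type (horizontal) and in the Tgm2 knockout (vertical), with bars for SE and a dashed line of equal change. Members lie along the line from Trim25 (-0.28 and -0.22) to Usp18 (4.95 and 5.69), with Isg20, Mx1 and Oasl1 above it and Ifi44 and Slfn1 below it.

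The order of the members by LPS change was nearly the same in both genotypes. Across the 51 members Pearson's r between the wild-type and knockout changes was 0.96 and Spearman's rho 0.95, for comparisons that share no library. Members are not independent replicates, so this is a description. Members with a low untreated level had the larger LPS differences. Between the mean log2 level in WT M0 and the change in the knockout, which share no library, r was -0.72 and rho -0.71 over the 51. The 4 most abundant members of WT M0 (Ifitm3, Slfn2, Lgals3bp and Bst2) had LPS differences of 0.18 to 1.70 in the knockout.

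**Figure D4:**
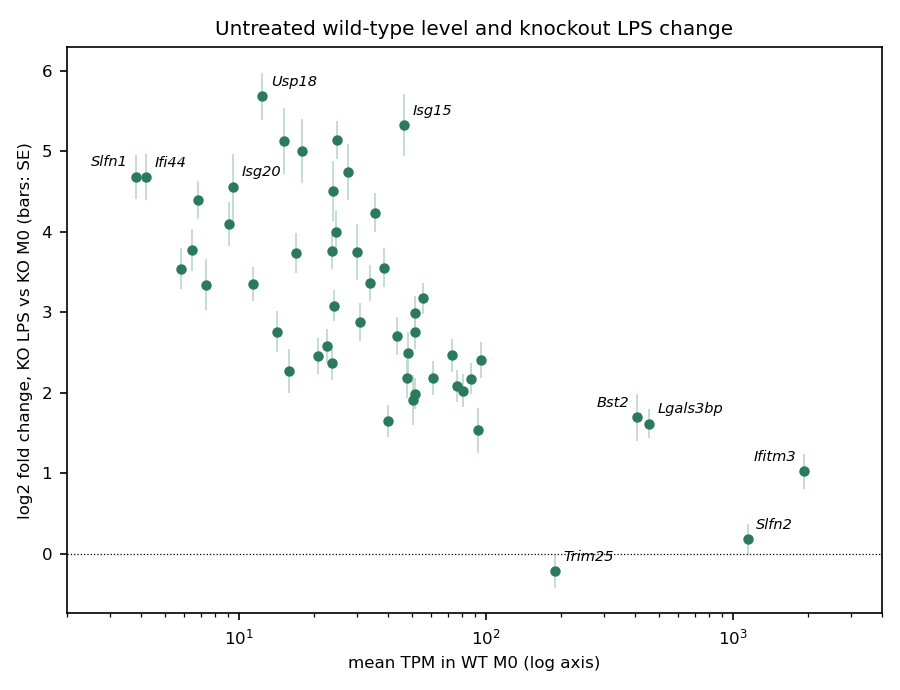
Mean TPM in WT M0 (log axis) against the log2 fold change with LPS in the knockout, for the 51 tested members, with bars for SE. Usp18 (5.69) and Isg15 (5.32) are at the top, and the abundant Slfn2 (0.18) and Ifitm3 (1.03) at the lower right.

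Without LPS the knockout did not differ from wild type by the test at any member. In KO M0 against WT M0, limma called 0 of 51 members at an adjusted p under 0.05, where 0.00% of all genes were higher and 0.00901% lower, that gene being Tgm2. At an unadjusted p under 0.05 it picked 1 member as higher (0.595% of all genes) and 0 as lower (0.793%), namely Ifi44 (0.65, SE 0.28, adjusted p = 1). The median log2 difference was 0.10 for the members and 0.06 for all genes. The KO M0 library lay between the WT M0 libraries for 19 members, above both for 27 (36.2% of all genes) and below both for 5 (24.0%), namely Mx2, Oas1g, Xaf1, Nmi and Epsti1. With 1 KO M0 library, small differences are not detectable.

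Under LPS the members were mostly somewhat higher in the knockout, but none passed the test. In KO LPS against WT LPS, limma called 0 of 51 members higher and 0 lower at an adjusted p under 0.05, where 4.59% of all genes were higher and 2.58% lower (509 and 286, or 390 and 335 with quantile normalization). At an unadjusted p under 0.05, 15 members were higher (12.5% of all genes) and 1, Rtp4, lower (7.50%). The median log2 difference was 0.31 against 0.03 for all genes. The difference was above 0 for 48 of 51 members (53.8% of all genes), and 46 of 51 members lay above the median gene (50.0% of all genes by construction). Both knockout libraries exceeded both wild-type ones for 29 members, 28.7% of all genes doing so, and the reverse held for Rtp4 alone (21.0%).

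The differences nearest the threshold were those of Oasl1 (0.83, SE 0.23) and Trim21 (0.74, SE 0.21), both with a limma adjusted p of 0.059. Mx2 followed at 0.75 (adjusted p = 0.063), then Isg20 at 1.12 (SE 0.33, 0.076), Mx1 at 1.02 (SE 0.30, 0.076) and Usp18 at 0.78 (SE 0.24, 0.085). Isg15 was 0.66 (SE 0.31, adjusted p = 0.28) and Ifit2 0.80 (SE 0.33, 0.21). Isg20 and Mx1 had the largest differences with all libraries in the fit, but these values rested on the WT LPS libraries. Without WT LPS replicate 2 they were 0.53 for Isg20, 0.45 for Mx1, 0.48 for Oasl1, 0.50 for Trim21, 0.45 for Mx2, 0.42 for Usp18 and 0.13 for both Isg15 and Ifit2. Without WT LPS replicate 1 they ran from 0.97 (Trim21) to 1.72 (Isg20). Trim21 passed with the compared groups alone (adjusted p = 0.0499). At the other end stood Rtp4 with -0.38 (SE 0.17, 0.24), Slfn1 with -0.16 and Slfn2 with -0.12. By role, the nucleotide and RNA enzymes had a median of 0.82, the Mx proteins with Ifi47 0.75 and the TRIM and nuclear body group 0.51. The Schlafens had -0.02.

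These differences moved when either WT LPS library was left out, and with 2 libraries neither can be called the odd one. WT LPS replicate 2 was below WT LPS replicate 1 for 49 of 51 members, all but Rtp4 and Ifitm3, while 33.9% of all genes were below. It was lower by at least 1.5-fold on TPM + 1 for 16 members, against 2.64% of all genes. It was the lowest of the 4 LPS libraries for 46 of 51 members (19.8% of all genes), and the others were Oasl2, Rtp4, Ifitm3, Slfn2 and Slfn8. The median log2 difference between replicate 1 and replicate 2 was 0.45 over the members and -0.11 over all genes. WT LPS replicate 1 differed from the knockout libraries by member medians of -0.04 against KO LPS replicate 1 and -0.19 against replicate 2. Over all genes these medians were -0.08 and -0.09. WT LPS replicate 1 lay above both knockout libraries for 11 members, between them for 10 and below both for 30. The shares of all genes were not computed for these counts, so they are only a description.

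Leaving out WT LPS replicate 2 brought the median genotype difference of the members to 0.13, with 0 called (2.75% of all genes higher). Leaving out WT LPS replicate 1 brought it to 0.47, with 11 called higher by limma (3.48% of all genes): Cmpk2, Ifit2, Isg15, Isg20, Mov10, Mx1, Mx2, Oasl1, Rsad2, Trim21 and Usp18. In these fits the spread of the other groups is assumed for the lone WT LPS library. A panel of 7 LPS-response genes was also lower in WT LPS replicate 2, with a summed level of 4925 TPM against 7560 in replicate 1 and 10772 and 12484 in KO LPS. Both WT LPS libraries were thus below both KO LPS libraries in that sum. With all libraries in the fit, limma called 6 of the 7 higher in KO LPS than in WT LPS (4.59% of all genes). The remaining 1 was not called, and the median log2 difference of the panel was 1.60. In the interaction 2 of the 7 were called higher (0.847% of all genes). The chemokine Cxcl10 of this panel was 1619 and 496 TPM in WT LPS against 2833 and 4386 in KO LPS. The part of these panel differences in the member values was not tested.

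**Figure D5:**
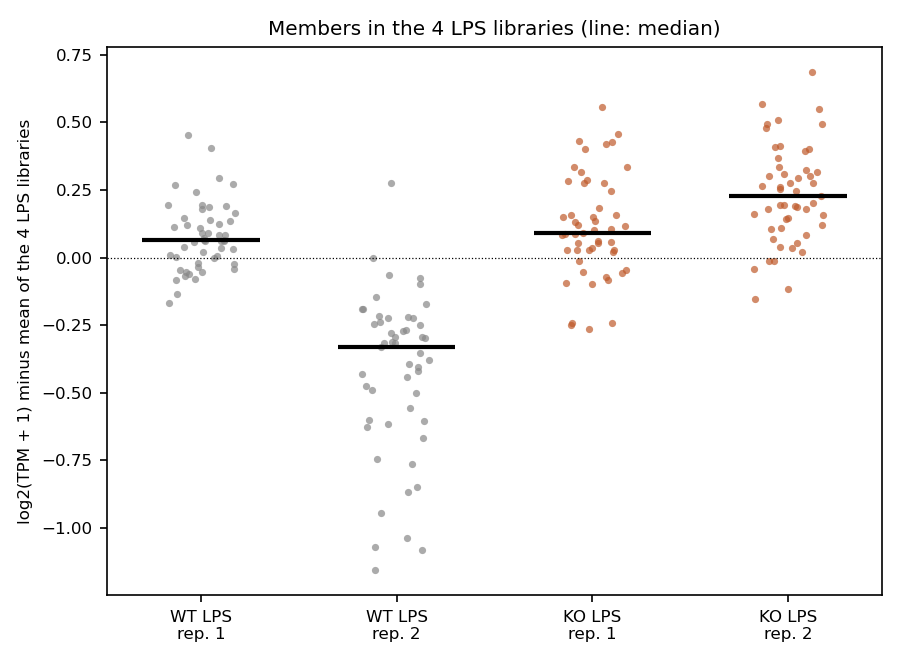
Each point is 1 of the 51 tested members in 1 LPS library, as log2(TPM + 1) minus the mean of the 4 LPS libraries, with black lines at the medians. WT LPS replicate 2 lies lowest, and WT LPS replicate 1 lies close to KO LPS replicate 1, from which it differs by a median of -0.04.

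The LPS change itself did not differ between genotypes for any member by the test of the difference. In the interaction, which subtracts the wild-type LPS change from that of the knockout, limma called 0 of 51 members higher and 0 lower at an adjusted p under 0.05, where 0.847% of all genes were higher and 0.523% lower. At an unadjusted p under 0.05 it picked 4 higher (6.27% of all genes), Trim21, Oasl1, Mx2 and Isg20, and 0 lower (4.18%). The largest values were 1.17 for Isg20 (SE 0.53, adjusted p = 0.48), 0.96 for Isg15 (SE 0.50, 0.56) and 0.94 for Mx1 (SE 0.48, 0.56). Ifi44 had the lowest, -0.60 (SE 0.36, 0.64). Without WT LPS replicate 2 the values were 0.58 (Isg20), 0.44 (Isg15), 0.37 (Mx1) and -0.87 (Ifi44), and without WT LPS replicate 1 they were 1.76, 1.49, 1.51 and -0.33. Ifi44 was also -0.33 without KO LPS replicate 1 and -0.88 without KO LPS replicate 2. The median of the members was 0.20 and that of all genes -0.02. Without WT LPS replicate 1 the members' median was 0.41, and without replicate 2 it was -0.038.

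Genes that carry the signal to the members were read in the same fits. Among 8 tested receptors and kinases, 1 rose and 1 fell in wild type, and 2 rose and 1 fell in the knockout. Across the whole table the called shares were 15.0% higher and 29.6% lower in wild type and 13.8% and 24.3% in the knockout, and with 8 genes the counts are near those shares. The receptor chains did not pass, with log2 differences in wild type of 0.13 for Ifnar1 and 0.22 for Ifnar2. The kinase Jak2 rose by 2.21 and 2.08 on the log2 scale, and Ifngr1, a chain of the interferon gamma receptor, fell by 0.95 and 1.65. Tyk2 rose in the knockout, by 1.37, and did not pass in wild type. It was 40.4 and 36.3 TPM in WT M0 and 33.5 in KO M0, then with LPS 50.7 and 39.1 in wild type and 86.5 and 89.3 in the knockout. Its knockout LPS libraries stood well above all the others, and Tyk2 was called higher in KO LPS than in WT LPS (0.97, SE 0.18, limma adjusted p = 0.0078). That call was lost with no filter on low genes (adjusted p = 0.062), without KO LPS replicate 2 (0.056) and without WT LPS replicate 2 (0.78, 0.091).

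Of 8 tested transcription factors of the pathway, 5 rose and 1 fell in each genotype, and 0 differed between genotypes under LPS (limma, with Irf8 lower at an unadjusted p under 0.05, -0.49, adjusted p = 0.093). Stat2, a subunit of ISGF3, rose by 3.20 and 3.52 on the log2 scale, Irf9 by 0.91 and 0.87 and Irf1 by 0.83 and 1.12, while Irf5 fell by 1.34 and 1.40. Irf7, which amplifies the interferon response, was 119 and 112 TPM in WT M0 and 113 in KO M0, then with LPS 1041 and 588 in wild type and 1219 and 1022 in the knockout, so it too was lowest of the LPS libraries in WT LPS replicate 2. Irf3 did not pass (-0.39 in wild type, limma adjusted p = 0.093, and -0.10 in the knockout).

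Among 16 genes between Tlr4 and Ifnb1, 5 rose and 2 fell in wild type and 4 rose and 2 fell in the knockout (all genes: 15.0% and 29.6%, then 13.8% and 24.3%). In both genotypes the share that rose was above that over all genes and the share that fell below it. With 16 genes this is only a description, and the shares over all genes depend on the scaling. Tank and Azi2, adaptors of the kinase Tbk1, rose by 1.70 and 1.36 in wild type and 1.64 and 1.57 in the knockout, while Jun fell by 0.97 and 1.44. The kinase Tbk1 itself rose by 0.69 and 0.70 and the adaptor Ticam2 by 0.83 and 1.33, and the receptor Tlr4 fell by 0.70 and 1.42. Cd14, which hands LPS to Tlr4, rose in wild type by 0.60. The Tlr4 and Cd14 calls in wild type were lost with no filter (limma adjusted p = 0.15 and 0.11) and without WT LPS replicate 1 (0.25 and 0.12). Tlr4 also lost that call with median-ratio scaling (0.13), with quantile normalization (0.074) and without WT M0 replicate 2 (0.30), and its knockout call with no filter (0.052). The call of Cd14 was also lost without WT M0 replicate 1 (0.15) or WT LPS replicate 2 (0.078), and the knockout call of Tbk1 without KO LPS replicate 2 (0.071). Ticam1 did not pass (-0.15 and 0.17). Of 12 inhibitors of the pathway, 8 rose and 1, Nlrc3, fell in each genotype (by 1.37 and 1.67). Nlrc3 was near the floor, at 1.83 to 2.98 TPM untreated and 0.0779 to 0.342 TPM after LPS. Over the fits that kept Nlrc3, its change ran from -2.97 to -1.14 in wild type and from -3.15 to -1.51 in the knockout. The wild-type call of Ptpn6 was lost without WT M0 replicate 2 (limma adjusted p = 0.081) or WT LPS replicate 1 (0.096), and the knockout call of Irf2 without KO LPS replicate 2 (0.066). Socs1, which blocks Jak kinases, rose by 3.38 and 3.69, Socs3 by 1.74 and 2.22, and Samhd1, which depletes nucleotides, by 1.84 and 2.12. Between genotypes under LPS limma called 0 genes of either list, where 4.59% of all genes were higher and 2.58% lower. With so few genes, these counts are near those shares. At an unadjusted p under 0.05 Ticam2 was higher (0.55, adjusted p = 0.093) in the list below Tlr4, as were Socs1 (0.72, 0.095) and Tnfaip3 (0.57, 0.055) among the inhibitors, and neither list had any lower.

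Of 8 adaptors and effectors of cytosolic sensing, 2 rose and 3 fell in each genotype, where all genes gave 15.0% and 29.6% in wild type and 13.8% and 24.3% in the knockout. With so few genes, these counts are near those shares. Zc3hav1, which binds viral RNA, rose by 0.84 and 0.85. G3bp1, a stress granule protein, fell by 0.43 and 0.56, a call lost in both genotypes with median-ratio scaling (-0.21 and -0.30), in wild type without any 1 of the 4 libraries compared (limma adjusted p of 0.053 to 0.15), and in the knockout without any 1 of the 4 LPS libraries (0.062 to 0.088). Cgas, the DNA sensor, rose by 0.77 and 0.87. The wild-type call of Cgas was lost without WT M0 replicate 1 (limma adjusted p = 0.067) or WT LPS replicate 2 (0.056), and the knockout call without KO LPS replicate 1 (0.060). Tmem173 (STING), the adaptor of DNA sensing, was 24.1 and 30.5 TPM in WT M0 and 31.7 in KO M0, then with LPS 5.83 and 5.82 in wild type and 12.9 and 13.6 in the knockout. It fell in both genotypes, by 2.04 and 1.20, and its KO LPS libraries lay between the WT LPS and the untreated ones. Tmem173 was called higher in KO LPS than in WT LPS (1.06, SE 0.19, limma adjusted p = 0.0066). This was lost with no filter on low genes (0.054) and without KO LPS replicate 2 (1.02, 0.058). The interaction did not pass at any gene of these pathway lists.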

How the data were processed

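RNA sequencing of 7 libraries was deposited by the authors as 1 table per library, with TPM for 23337 genes and a total of 1000000 in each. Reads were processed against mm10, per the submitters' processing notes. How they were aligned and quantified, with which gene annotation, by strand or not and with which rule for shared reads is not given in the sources used here, so near-identical copies are uncertain. TPM keep no depth, so no counting interval is given. Groups were set by sample titles.

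Of 54 named members, 51 were matched by symbol and 1 by a RefSeq synonym (Phf11d). Genes with a mean of at least 1 TPM over the 7 libraries were kept (11096). Group means over all 7 libraries were fitted to log2(TPM + 1), a pseudocount of 1 that understates the changes of low genes, with limma 3.58.1 in R 4.3.3. Variances were moderated along a mean trend (3 residual and 7.3 prior degrees of freedom), with Benjamini-Hochberg adjustment at 0.05 over all genes tested in each of 5 comparisons. The steps were tested on simulated data.

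Members named with values were Ifnb1, the 5 largest rises per LPS comparison, per role the highest in WT LPS and the largest genotype difference under LPS, the 5 most abundant in WT M0 and in WT LPS, and those that did not pass after LPS. Further members named were chosen after their values were seen. From the pathway lists came the genes called between genotypes, the 3 largest LPS changes per list and 8 set genes, of which some are not reported here. The members, the lists and the tests were chosen with earlier results of these data known. Promoters and coordinates are from RefSeq tables of GRCm38.p6, the assembly that mm10 is built on. Motif searches used Python 3.11.15 with pandas 2.3.3, and figures matplotlib 3.10.9. Alternatives were median-ratio scaling, quantile normalization, a pseudocount of 0.1, no filter, a minimum mean TPM of 5, each library left out, the compared groups alone, the replicate number as a block and a fit that leaves out the 2 WT LPS libraries.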

Additional observations from a re-analysis of the deposited data

How the results depend on the processing

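The counts of members higher with LPS stayed at 49 or 50 in wild type and at 49 in the knockout in every alternative, with 0 lower, and the counts in KO M0 against WT M0 and in the interaction stayed at 0. The count of members higher in KO LPS than in WT LPS was the exception. It ran from 0 to 11 when single libraries were left out, with 11 only without WT LPS replicate 1, and it was 1 (Trim21; 4.68% of all genes) with the compared groups alone. It stayed at 0 with both other scalings, the pseudocount of 0.1, no filter and a minimum mean TPM of 5. The median of the members in WT LPS against WT M0 was 2.56 without WT LPS replicate 1. Some values near 0 changed sign. In KO LPS against WT LPS, Slfn1 ran from -0.48 without WT LPS replicate 2 to 0.17 without WT LPS replicate 1, and Slfn2 from -0.25 to 0.0031 without the same libraries. Trim25 in the knockout was 0.034 with median-ratio scaling, and the median of the interaction, 0.20 with all libraries, ran from -0.038 without WT LPS replicate 2 to 0.41 without WT LPS replicate 1. The cause was not tested.

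The labels do not say what a replicate number marks, and the values did not show that the numbers pair the samples. The correlation over all genes of the difference between replicates 1 and 2 was 0.08 between WT M0 and WT LPS, 0.30 between WT M0 and KO LPS and 0.18 between WT LPS and KO LPS, and the KO M0 title has no number. With the replicate number as a block, over the 6 numbered libraries, 4 members were called higher in KO LPS than in WT LPS (Isg20, Mx2, Oasl1 and Trim21; 6.45% of all genes) and the counts in WT LPS against WT M0 were the same as without it.

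Groups of 1 or 2 libraries limit all of these results, and depth is unknown. The typical difference between replicates of a gene was 0.20 to 0.22 on the log2 scale (median absolute difference).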
